A study of Mus musculus with 12 samples.

Results

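Apol7c and Ocstamp are 2 of the 55322 genes measured in splenic type 2 conventional dendritic cells (cDC2), here set out across all 4 groups studied, starting from the cells grown from transferred common dendritic cell progenitors (CDP-cDC2). They were selected on their FPKM in the transfer experiment, because their level was much lower in cDC2 grown from transferred common lymphoid progenitors (CLP-cDC2) than in CDP-cDC2. That difference is therefore given as a description and with no test, and so is every other comparison that uses those libraries for the pair. The remaining comparison, between the cDC2 of reporter mice that carried the lymphoid fate label and those that did not, was not used in the choice and is the one tested.

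The 12 libraries formed 4 groups of 3, all from spleens taken on day 4 after 5 mg/kg of lipopolysaccharide (LPS), the bacterial cell wall component, was given into the peritoneum, so no untreated group is included. From Il7r-cre; Rosa26-lsl-tdTomato mice came the tdTomato+ cells (L-cDC2) and the tdTomato- cells (M-cDC2). In these mice Cre made from the interleukin-7 receptor gene turns on a permanent red label in a cell and its descendants. CLP-cDC2 and CDP-cDC2 were wild-type CD45.2 cells recovered from B6.SJL (CD45.1) hosts whose bone marrow had received CLPs or CDPs. Mice were C57BL/6J, 7 to 8 weeks of age and kept in SPF housing, as the labels state. The labels do not say whether libraries came from separate mice, whether L-cDC2 and M-cDC2 shared mice or which surface markers defined the sort. The p-values thus set a group difference against the spread of these samples within their groups, and that spread may be technical.

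Apolipoprotein L proteins are small lipid-binding, membrane-active proteins, several of which can open pores in membranes. In mouse dendritic cells APOL7C is known to be induced on activation and to be recruited to phagosomes, where it damages the phagosome membrane and lets engulfed antigen reach the cytosol for presentation to CD8 T cells (cross-presentation). OCSTAMP, the osteoclast stimulatory transmembrane protein, acts with its paralog DCSTAMP in the fusion of macrophage-lineage cells into osteoclasts and foreign-body giant cells. Cell fusion is not a usual feature of splenic cDC2.

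Values are FPKM, the reads of a gene scaled to its length in kilobases and to the reads assigned to genes in that library. Assigned reads, recovered from the steps of the FPKM values, ranged from 26543345 to 73732243 per library. The cDC genes Flt3 and Zbtb46 were present in every group, at means of at least 92.6 and 8.59 FPKM. CDP-cDC2 replicate 3 and M-cDC2 replicate 3 stood apart from their groups on a principal component each (PC2 score -50.6 and PC3 score -40.5), and the differences of Apol7c and Ocstamp are given with and without them. The 10 neutrophil markers summed to 50.2 FPKM in L-cDC2 replicate 2 and 18.7 FPKM in M-cDC2 replicate 2, against 1.53 to 9.95 FPKM elsewhere. The 12 plasmacytoid dendritic cell markers summed to 331.7 FPKM in CLP-cDC2 replicate 1, against 189.4 and 211.3 FPKM in replicates 2 and 3.

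Apol7c (ENSMUSG00000044309) is a protein-coding gene with 2 annotated transcripts and an exonic length of 2060 bases, deposited at chr15:77409052-77417516 on the minus strand. Ocstamp (ENSMUSG00000027670) is a protein-coding gene with 1 transcript of 3 exons and 3657 bases, deposited at chr2:165235680-165242325 on the minus strand. For these deposited coordinates the sources used here give no build. The window before the start of Apol7c is shown because it holds a feature that the gene shares with relatives that were nearly silent in the same cells. It is the 250 bases before the start in RefSeq's GRCm38.p6, chr15:77533316-77533565 on the minus strand, with capitals marking a run of overlapping matches to TTTCNNTTTC, the repeat bound by interferon regulatory factors.
Apol7c: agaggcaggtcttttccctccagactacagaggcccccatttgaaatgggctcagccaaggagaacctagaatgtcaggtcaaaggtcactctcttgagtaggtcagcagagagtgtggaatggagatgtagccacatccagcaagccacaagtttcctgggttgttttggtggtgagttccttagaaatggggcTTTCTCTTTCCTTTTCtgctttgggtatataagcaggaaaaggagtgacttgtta

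The matches began 55 and 49 bases before the start, and a TATAA began 28 bases before it. Searched on both strands of 250-base windows, TTTCNNTTTC occurred in 2.98% and TATAA in 22.8% of the 32851 RefSeq promoters. GGGANNTTCC (in 1.21% of promoters), TGANTCA (6.75%), GAGGAA (23.3%) and TATAAA (12.4%) had no match in the Apol7c window, which says only that these letters are not in it. The repeat was held by 7 of the 11 Apol family genes that have a promoter in that table. The 40 bases around the repeat of Apol7c (chr15:77533343-77533382, minus strand), Apol7e (chr15:77698841-77698880, plus strand) and Apol9b (chr15:77729023-77729062, plus strand; the match nearest the start) are set side by side for comparison, again in GRCm38.p6.
Apol7c: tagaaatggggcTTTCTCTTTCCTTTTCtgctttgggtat
Apol7e: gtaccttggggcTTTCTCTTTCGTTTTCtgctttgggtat
Apol9b: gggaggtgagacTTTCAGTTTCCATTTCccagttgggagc

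Apol7c was at about the same level in 3 of the 4 groups and low in the CLP-cDC2. It had 13.3, 11.5 and 17.6 FPKM in the L-cDC2 libraries and 16.5, 11.9 and 13.3 FPKM in the M-cDC2 libraries. The values in CLP-cDC2 were 1.46, 0.857 and 0.751 FPKM, against 18.1, 15.5 and 11.2 FPKM in CDP-cDC2. Every CLP-cDC2 library lay below every other library, while the remaining 3 groups overlapped one another. These levels rest on 65.67 to 2675.73 assigned reads per library, so the low values in CLP-cDC2 are not at the limit of detection, where 3 reads of a library are worth at most 0.0549 FPKM.

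Ocstamp showed a graded pattern in place of an on and off one. It had 1.23, 0.984 and 1.27 FPKM in L-cDC2, against 2.98, 3.34 and 3.87 FPKM in M-cDC2. In the transfer system it had 1.04, 0.959 and 0.728 FPKM in CLP-cDC2, against 14.4, 9.76 and 8.67 FPKM in CDP-cDC2. CDP-cDC2 were highest, M-cDC2 came next and neither group overlapped another, whereas the ranges of L-cDC2 and CLP-cDC2 overlapped at about 1 FPKM. The values rest on 95.5 to 2001 assigned reads. In bulk samples such as these, fewer cells that make a transcript and less transcript per cell cannot be told apart.

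**Figure D1:**
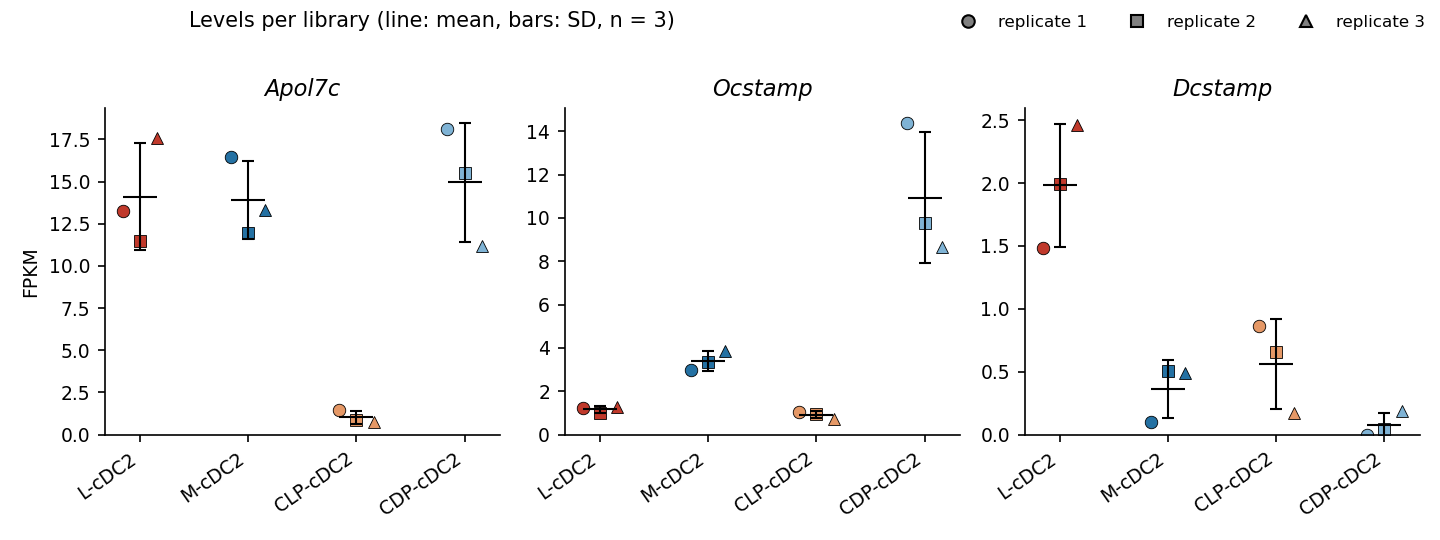
Levels of Apol7c, Ocstamp and its paralog Dcstamp in FPKM (vertical axes) in the 3 libraries of each of the 4 groups; symbols mark the replicate, the line the mean and the bars 1 SD. Apol7c lay between 11.2 and 18.1 FPKM in every library but those of CLP-cDC2, Ocstamp was highest in CDP-cDC2 (8.67 to 14.4 FPKM), and Dcstamp was highest in L-cDC2 (1.49 to 2.46 FPKM).

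In the reporter mice the pair parted: Ocstamp was lower in L-cDC2, set against M-cDC2, and Apol7c showed no detectable difference. Apol7c averaged 14.1 ± 3.16 FPKM in L-cDC2 and 13.9 ± 2.32 FPKM in M-cDC2 (SD, n = 3 each). The log2 difference of L-cDC2 minus M-cDC2, on log2(FPKM + 1), was 0.01 ± 0.21 (SE) with a 95% interval of -0.45 to 0.47 and a limma adjusted p of 0.99. The interval leaves room for a modest difference in either direction, and the sign of the estimate changed with the scaling and with the libraries left out (-0.01 without M-cDC2 replicate 3).

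Ocstamp averaged 1.16 ± 0.155 FPKM in L-cDC2 and 3.40 ± 0.443 FPKM in M-cDC2 (SD, n = 3 each), a ratio of means of 0.342. The log2 difference of L-cDC2 minus M-cDC2 was -1.02 ± 0.18 (SE; 95% interval -1.42 to -0.63; limma adjusted p = 0.0083, over 14538 genes). All 3 L-cDC2 libraries lay below all 3 M-cDC2 libraries. Across all genes tested 0.44% were called lower in L-cDC2, and 6.67% had libraries that did not overlap in that direction. Counted from the lowest difference, Ocstamp ranked 47 of 14538 genes. Leaving out L-cDC2 replicate 1 (adjusted p = 0.0513 by limma) or L-cDC2 replicate 2 (adjusted p = 0.0759 by limma) ended the call, as did a fit with a pseudocount of 5 (adjusted p = 0.0852 by limma). Without both libraries that stood apart the difference was -0.95 (limma adjusted p = 0.024).

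Transcripts on the marker lists of NK cells and ILCs, B cells, T cells and plasma cells were higher in L-cDC2, and their source was not tested. The summed level of the 13 NK cell and ILC markers was 339.8 to 429.6 FPKM in L-cDC2 and 85.4 to 129.6 FPKM in M-cDC2, with 9 of 11 tested members called higher and 0 lower by limma (4 higher without any 1 of L-cDC2 replicates 1, 2 and 3). Of those 9, 5 reached 1 FPKM in L-cDC2 alone and so passed the filter for testing only through that group. The 13 B cell markers summed to 199.4 to 220.4 FPKM in L-cDC2 and 79.6 to 82.9 FPKM in M-cDC2 (6 of 9 called higher), and the 11 T cell markers to 44.5 to 59.8 FPKM in L-cDC2 and 7.73 to 10.05 FPKM in M-cDC2 (5 of 7 called higher, 1 of them at 1 FPKM in L-cDC2 alone). In the plasma cell list 3 of 4 tested members were called higher in L-cDC2 (1 if L-cDC2 replicate 1 or M-cDC2 replicate 3 was left out). Across all genes 1.29% were called higher in L-cDC2. In CLP-cDC2 minus CDP-cDC2, 6 of 9 B cell markers were called higher (3 without CLP-cDC2 replicate 2 or CDP-cDC2 replicate 3), beside 2 of 7 T cell markers and 1 of 11 NK cell and ILC markers. Of all genes 7.02% were called higher in that contrast. The T cell count was 1 if any 1 of CLP-cDC2 replicates 1 and 2 and CDP-cDC2 replicates 1 and 3 was left out and 3 without CLP-cDC2 replicate 3, and the NK cell and ILC count was 2 without CDP-cDC2 replicate 2. The part of these transcripts in the level of Ocstamp was not tested.

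Between the transferred progenitors, where both genes were picked, Apol7c averaged 1.02 ± 0.384 FPKM in CLP-cDC2 and 14.9 ± 3.51 FPKM in CDP-cDC2 (SD, n = 3 each). The CDP-cDC2 mean was thus 14.6 times that of CLP-cDC2, and the log2 difference of CLP-cDC2 minus CDP-cDC2 was -2.97, the fifth lowest of 14538 genes. Ocstamp averaged 0.908 ± 0.162 FPKM in CLP-cDC2 and 10.9 ± 3.04 FPKM in CDP-cDC2 (SD, n = 3 each). Its CDP-cDC2 mean was 12.04 times that of CLP-cDC2 and its log2 difference was -2.62, the ninth lowest. In this comparison 6.12% of genes were called lower and 13% had libraries that did not overlap in that direction, which describes the choice and adds nothing to it. The log2 differences depended on the pseudocount, running from -3.77 to -1.71 for Apol7c and from -3.43 to -1.42 for Ocstamp with pseudocounts of 0.1 and 5. Without CDP-cDC2 replicate 3 the difference was -3.15 for Apol7c and -2.76 for Ocstamp.

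Setting the transfer groups beside the reporter groups showed which end of each difference was unlike the reporter mice. For Apol7c the CDP-cDC2 mean was 1.08 times the M-cDC2 mean (log2 difference 0.08), while the CLP-cDC2 mean was 0.0725 of the L-cDC2 mean (log2 difference -2.90). For Apol7c, then, CLP-cDC2 was the group apart. For Ocstamp it was CDP-cDC2: the CDP-cDC2 mean was 3.22 times the M-cDC2 mean (log2 difference 1.42, rank 14511 of 14538 from the lowest), while the CLP-cDC2 mean was 0.783 of the L-cDC2 mean (log2 difference -0.18). In the reporter mice the L-cDC2 level of Ocstamp lay below that of M-cDC2. CLP-cDC2 also lay below CDP-cDC2, but Ocstamp was chosen for that direction, so its sharing by both systems is no independent agreement. Both genes were chosen on the transfer libraries, so the group apart and the rank given here only describe those libraries. Without replicate 3 of CDP-cDC2 and of M-cDC2 the log2 difference of CDP-cDC2 minus M-cDC2 was 0.24 for Apol7c and 1.63 for Ocstamp. For Apol7c the reporter groups overlapped and the transfer groups did not. The transfer and reporter groups also differed in host strain, transfer and genotype, which cannot be told apart here from a difference in origin.

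The balance of the pair set L-cDC2 and M-cDC2 apart from each other and from the transfer groups, but did not separate CLP-cDC2 from CDP-cDC2. The ratio of Apol7c to Ocstamp FPKM was 10.8, 11.7 and 13.8 in L-cDC2, against 5.52, 3.57 and 3.44 in M-cDC2. It was 1.41, 0.893 and 1.03 in CLP-cDC2, against 1.26, 1.59 and 1.29 in CDP-cDC2. Despite the large difference in level, the ratio in both transfer groups lay near 1 and their ranges overlapped, because both genes differed by about the same factor. Both had been picked for a large difference between those groups. Over the 12 libraries the levels of Apol7c and Ocstamp had a Pearson correlation of 0.57 and a Spearman correlation of 0.69, given as descriptions of libraries that share 4 group means.

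Part of the Apol7c signal may be shared with near copies. Of the 2059 stretches of 50 bases in its GENCODE M21 transcripts, 25.6% also occurred in another gene, 327 of them in the unprocessed pseudogene Gm8221 (ENSMUSG00000095704, deposited at chr15:77506034-77510837), 215 in Apol7a and 87 in Apol7e. Gm8221 was chosen for display after this overlap and its values were seen. It had 11.4, 8.65 and 9.36 FPKM in L-cDC2, against 11.2, 5.99 and 10.8 FPKM in M-cDC2. It had 1.59, 0.232 and 0.635 FPKM in CLP-cDC2, against 7.05, 8.48 and 3.24 FPKM in CDP-cDC2. The pseudogene was thus low in the same 3 libraries as Apol7c. The read numbers of Apol7c were fractional in 11 of 12 libraries, so its level and that of Gm8221 are uncertain with respect to each other. Ocstamp was little affected, with 2.80% of its 50-base stretches shared and fractional reads in 2 of 12 libraries.

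The other apolipoprotein L genes were near silent. All 13 family members listed were in the table, and besides Apol7c only Apol10b reached 1 FPKM in any library. Apol10b had 1.04, 0.405 and 0.00875 FPKM in L-cDC2, against 0.599, 0.295 and 0.413 FPKM in M-cDC2. In the transfer groups it had 0.225, 0.0502 and 0 FPKM in CLP-cDC2, against 0.432, 1.05 and 0.134 FPKM in CDP-cDC2. Its groups overlapped within both systems, and 2 of the 3 CLP-cDC2 libraries were the lowest of the transfer system. Apol9b ran the other way at very low levels, with 0.291, 0.475 and 0.828 FPKM in CLP-cDC2, against 0, 0.0049 and 0.0135 FPKM in CDP-cDC2. The remaining family members stayed under 1 FPKM in every library, and none besides Apol7c passed the filter for testing. Apol7e and Apol9b, whose repeat is printed beside that of Apol7c, were among them.

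**Figure D2:**
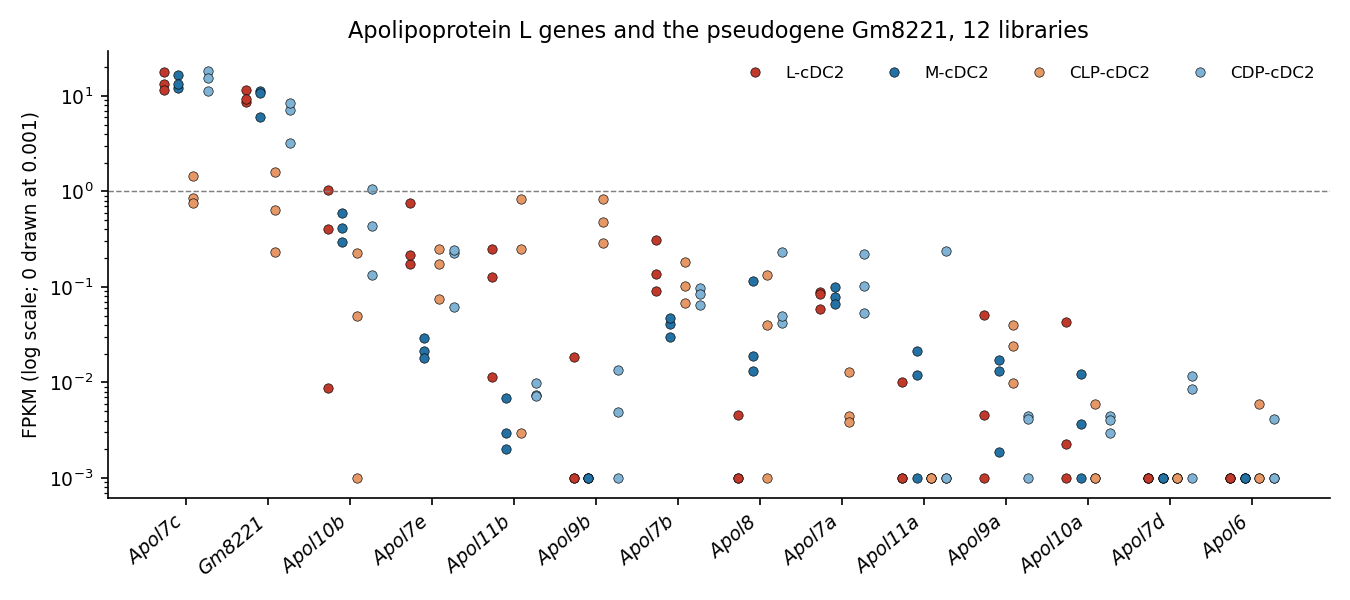
Levels in FPKM (log scale; 0 is drawn at 0.001) of Apol7c, the pseudogene Gm8221 and the 12 other apolipoprotein L genes, with 1 point per library and colours for the 4 groups; the dashed line marks 1 FPKM. Apol7c and Gm8221 stand above the rest in all groups but CLP-cDC2, and the highest value of any other family member is 1.05 FPKM.

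The neighbours of both genes did not share their level. By the deposited coordinates the nearest protein-coding genes on either side of Apol7c were Apol11a at 6.80 kb and 1700025B11Rik at 24.9 kb, with group means of at most 0.0797 and 0.101 FPKM. Apol10a at 33.8 kb and Apol10b at 50.5 kb came next. Ocstamp lay between Zfp334 at 5.501 kb and Slc13a3, a sodium-coupled dicarboxylate transporter gene, at 4.62 kb. Slc13a3 averaged 0.0155 FPKM in L-cDC2, 0.0777 FPKM in M-cDC2, 0.0014 FPKM in CLP-cDC2 and 0.166 FPKM in CDP-cDC2, the same order of groups as Ocstamp at a far lower level. Farther out, Zfp663 at 25.0 kb was near 0, and Trp53rka at 89.7 kb averaged 12.7 FPKM in L-cDC2, 12.5 FPKM in M-cDC2, 8.27 FPKM in CLP-cDC2 and 12.1 FPKM in CDP-cDC2.

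Dcstamp, the paralog with which Ocstamp acts in fusion, had nearly the opposite pattern. It had 1.49, 1.99 and 2.46 FPKM in L-cDC2, against 0.0999, 0.503 and 0.488 FPKM in M-cDC2. In the transfer system it had 0.862, 0.658 and 0.168 FPKM in CLP-cDC2, against 0, 0.0468 and 0.184 FPKM in CDP-cDC2. The 3 L-cDC2 libraries lay above all 3 M-cDC2 libraries, with a log2 difference of 1.13 ± 0.21 (SE). Only the L-cDC2 libraries reached 1 FPKM, so Dcstamp passed the filter for testing through the group where it is high, and this difference is given as a description with no p-value. The CLP-cDC2 minus CDP-cDC2 difference was 0.51 (95% interval 0.05 to 0.97; limma adjusted p = 0.13), and those groups overlapped. Where Ocstamp was highest, in CDP-cDC2, Dcstamp averaged 0.077 FPKM.

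Other genes of cell fusion and of osteoclasts did not follow Ocstamp as a group in the reporter mice. Of 35 listed genes 27 were tested. In L-cDC2 minus M-cDC2, Mmp9 was called higher, as was Dcstamp, which the filter admitted through L-cDC2 alone. Lower calls numbered 0, and the median was 0.10 beside 0.04 over all genes. Of all genes 1.29% were called higher and 0.44% lower in that contrast, so 0 lower calls among 27 genes lies near the share over all genes. Mmp9, a gelatinase of osteoclasts and neutrophils, averaged 14.1 ± 2.03 FPKM in L-cDC2 and 6.43 ± 0.0999 FPKM in M-cDC2 (SD, n = 3 each). Its log2 difference was 1.01 (limma adjusted p = 0.0024), opposite in sign to that of Ocstamp.

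In CLP-cDC2 minus CDP-cDC2, 11 of the 27 fusion and osteoclast genes were called lower and 1 higher, with a median of -0.46 beside -0.01 over all genes, where 6.12% were called lower and 7.02% higher. Csf1r, the receptor for the macrophage growth factor M-CSF, averaged 7.50 ± 1.16 FPKM in CLP-cDC2 and 30.7 ± 9.77 FPKM in CDP-cDC2 (SD, n = 3 each; log2 difference -1.86, limma adjusted p = 2.3e-04). Cd81, a tetraspanin that restrains macrophage fusion in mice, averaged 2.18 ± 2.91 FPKM in CLP-cDC2 and 10.4 ± 5.29 FPKM in CDP-cDC2 (SD, n = 3 each; log2 difference -2.13, limma adjusted p = 0.014, lost in 4 of 24 alternatives). The count of 11 was 7 without CLP-cDC2 replicate 1, 6 without CLP-cDC2 replicate 2, and 5 with the transfer groups fitted alone. Of the 35 listed genes 8 stayed under 1 FPKM in every library. Acp5, the tartrate-resistant acid phosphatase gene of osteoclasts and some macrophages, was by contrast abundant, at 147 ± 9.95 FPKM in L-cDC2 and 144 ± 10.4 FPKM in M-cDC2, and at 64.6 ± 6.30 FPKM in CLP-cDC2 and 152 ± 34.2 FPKM in CDP-cDC2 (SD, n = 3 each). It was chosen for display after its values were seen.

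Apol7c was placed on a list of dendritic cell maturation genes that was set with results of these data known. Many other genes of that list were also low in CLP-cDC2. Of 35 listed genes other than Apol7c 33 were tested. In L-cDC2 minus M-cDC2, 2 were called lower (Tmem176a and Tmem176b, paired ion channel genes of dendritic cells) and 0 higher, with a median of 0.00. Neither call for those channel genes held under all alternatives: Tmem176b was lost in 15 of 24 and Tmem176a in 7 of 24. In CLP-cDC2 minus CDP-cDC2, 19 of 33 were called lower and 0 higher, with a median of -0.81. Among all genes 6.12% were called lower and 7.02% higher there, with a median of -0.01, and 0.44% and 1.29% in L-cDC2 minus M-cDC2. The 35 genes summed to 1334 to 1387 FPKM in L-cDC2 and 1337 to 1413 FPKM in M-cDC2. They summed to 663 to 770 FPKM in CLP-cDC2 and 1257 to 1626 FPKM in CDP-cDC2. As for Apol7c, the CLP-cDC2 were the low group and the other 3 overlapped. The count of 19 ranged from 15 to 23 over the alternatives and was 17 without the 2 libraries that stood apart.

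Cacnb3, a calcium channel subunit gene of migratory dendritic cells, averaged 0.5002 ± 0.194 FPKM in CLP-cDC2 and 4.83 ± 0.816 FPKM in CDP-cDC2 (SD, n = 3 each; log2 difference -1.96, limma adjusted p = 5.9e-05). Nudt17, a nudix hydrolase gene, averaged 0.00701 ± 0.0121 FPKM in CLP-cDC2 and 3.03 ± 0.517 FPKM in CDP-cDC2 (log2 difference -1.99, limma adjusted p = 2.7e-04). In the reporter mice neither was called: Cacnb3 averaged 4.06 FPKM in L-cDC2 and 4.19 FPKM in M-cDC2, and Nudt17 3.11 FPKM in L-cDC2 and 3.32 FPKM in M-cDC2. A test of the difference between the CLP-cDC2 minus CDP-cDC2 and the L-cDC2 minus M-cDC2 contrasts called 14 of the 33 genes lower and 0 higher by limma, beside 3.61% and 2.38% of all genes. That count was 8 to 9 without any 1 of L-cDC2 replicates 1, 2 and 3, M-cDC2 replicate 2 or CLP-cDC2 replicate 2. Membership of Apol7c in this list, like the list itself, was set with results of these data known.

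**Figure D3:**
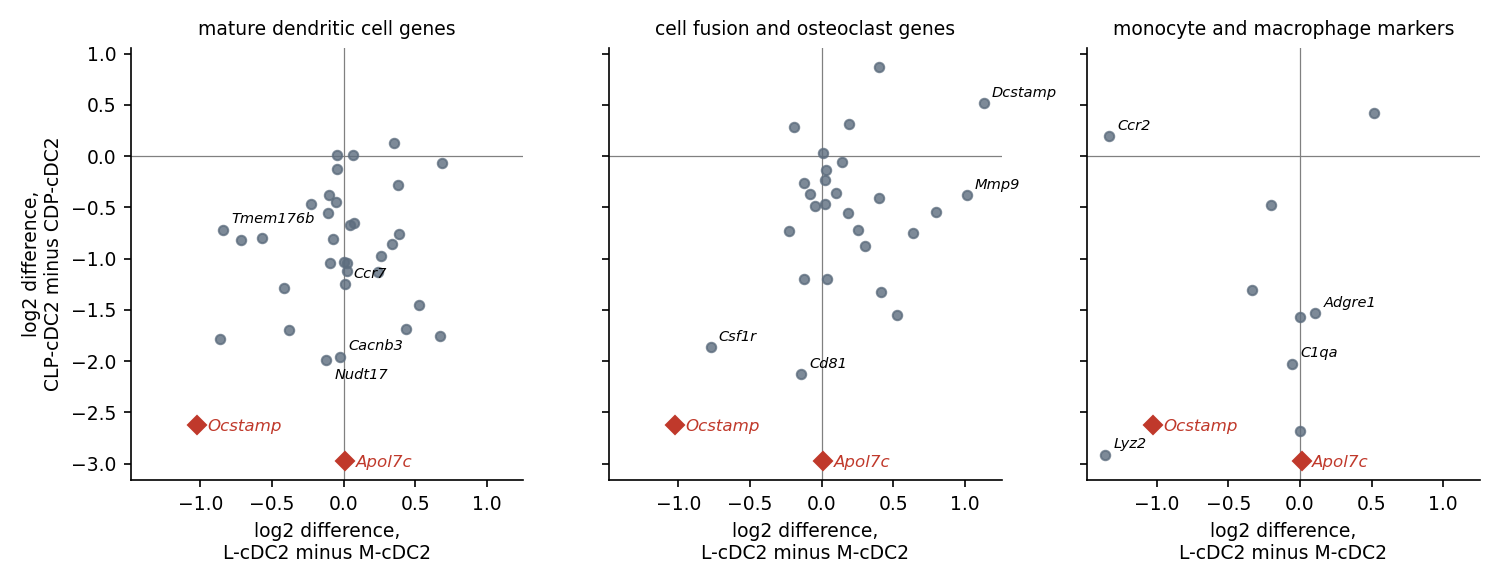
Log2 differences of L-cDC2 minus M-cDC2 (horizontal axes) and of CLP-cDC2 minus CDP-cDC2 (vertical axes) for the tested genes of 3 lists, 1 point per gene, with Apol7c and Ocstamp as red diamonds in each panel. Mature dendritic cell genes extend down to -1.99 on the vertical axis near 0 on the horizontal one, above Apol7c at -2.97, while Dcstamp and Mmp9 lie at 1.13 and 1.01 on the horizontal axis, on the other side of 0 from Ocstamp at -1.02.

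Genes that carry out cross-presentation, the process in which APOL7C takes part, mostly did not differ detectably. Of 28 tested, 1 was called lower in L-cDC2 minus M-cDC2 and 0 higher. That gene, Clec9a, is the receptor of cDC1 for dead cells, and its call was lost in 6 of 23 alternatives. In CLP-cDC2 minus CDP-cDC2, 3 were called lower and 2 higher, with a median of -0.04. The shares over all genes were 6.12% lower and 7.02% higher there, with a median of -0.01, and 0.44% and 1.29% in L-cDC2 minus M-cDC2. The higher count was 0 without CLP-cDC2 replicate 2, 1 if M-cDC2 replicate 2, CLP-cDC2 replicate 1 or CDP-cDC2 replicate 3 was left out, and 1 with both libraries that stood apart removed. Those with the largest differences were Rab43, a trafficking GTPase gene (13.4 ± 2.40 FPKM in CLP-cDC2 and 26.5 ± 9.40 FPKM in CDP-cDC2; SD, n = 3 each; limma adjusted p = 0.036, lost in 9 of 24 alternatives), and Cd74, the MHC class II invariant chain gene (6880.3 ± 499 FPKM in CLP-cDC2 and 12864 ± 2233 FPKM in CDP-cDC2, limma adjusted p = 0.0010).

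The list of Toll-like receptor and NF-kB genes holds genes that sense and relay LPS, and also the cytokine gene Il1b. In L-cDC2 minus M-cDC2, 2 of 26 were called lower (Cd14 and Il1b, 1 call without L-cDC2 replicate 2 or 3) and 0 higher. In CLP-cDC2 minus CDP-cDC2, 11 of 26 were called lower and 0 higher, with a median of -0.54. There 6.12% of all genes were called lower and 7.02% higher, with a median of -0.01, and in L-cDC2 minus M-cDC2 0.44% and 1.29%. The count of 11 was 6 without CLP-cDC2 replicate 1, 5 without CLP-cDC2 replicate 2, 6 without CDP-cDC2 replicate 2 and 7 without CDP-cDC2 replicate 3. Cd14, the LPS co-receptor gene, was lower in both systems: it averaged 0.450 ± 0.0438 FPKM in L-cDC2 and 2.43 ± 0.617 FPKM in M-cDC2 (SD, n = 3 each; limma adjusted p = 0.0069, lost in 2 of 23 alternatives), and 0.377 ± 0.127 FPKM in CLP-cDC2 and 2.55 ± 1.05 FPKM in CDP-cDC2 (SD, n = 3 each; limma adjusted p = 0.0021). Like Ocstamp it was low in L-cDC2 and in CLP-cDC2.

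The 18 monocyte and macrophage markers summed to 594 to 655 FPKM in L-cDC2 and 838 to 937 FPKM in M-cDC2. They summed to 430 to 581 FPKM in CLP-cDC2 and 1020 to 1220 FPKM in CDP-cDC2. Lyz2 and Cd68 carried most of these sums. Without Lyz2 alone the list summed to 495 to 546 FPKM in L-cDC2 and 553 to 664 FPKM in M-cDC2. It summed to 388 to 478 FPKM in CLP-cDC2 and 584 to 680 FPKM in CDP-cDC2, with no overlap in either system. Without both genes it summed to 69.6 to 73.0 FPKM in L-cDC2 and 67.4 to 77.1 FPKM in M-cDC2. In the transfer system it then summed to 23.5 to 96.8 FPKM in CLP-cDC2 and 90.1 to 119.7 FPKM in CDP-cDC2, so that both systems overlapped. Those removals, and the display of Adgre1, were chosen with the values in view. Of 9 tested, 2 were called lower in L-cDC2 minus M-cDC2 (Lyz2 and Ccr2; 0 or 1 without any 1 of L-cDC2 replicates 1, 2 and 3 or M-cDC2 replicates 1 and 2) and 0 higher, with a median of -0.05. Between the transfer groups 5 were called lower in CLP-cDC2 and 0 higher, with a median of -1.53 (3 lower without CLP-cDC2 replicate 1). Calls over all genes there were 6.12% lower and 7.02% higher, with a median of -0.01, and 0.44% and 1.29% in L-cDC2 minus M-cDC2. Lyz2, the lysozyme gene of myeloid cells, averaged 106 ± 6.18 FPKM in L-cDC2 and 274 ± 11.3 FPKM in M-cDC2, and 66.6 ± 32.6 FPKM in CLP-cDC2 and 476 ± 69.8 FPKM in CDP-cDC2 (SD, n = 3 each). Its log2 differences were -1.36 in the reporter mice (limma adjusted p = 0.0087, lost in 3 of 24 alternatives) and -2.91 in the transfer system (limma adjusted p = 3.4e-05). Adgre1, which encodes the macrophage antigen F4/80, averaged 52.6 ± 5.08 FPKM in L-cDC2 and 48.8 ± 5.46 FPKM in M-cDC2, and 16.05 ± 2.02 FPKM in CLP-cDC2 and 49.98 ± 17.3 FPKM in CDP-cDC2 (SD, n = 3 each). The part of such cells in the level of Ocstamp was not tested.

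The markers of cDC2 themselves differed between the transferred groups. Of 20 tested, 12 were called lower and 1 higher in CLP-cDC2 minus CDP-cDC2 (8 lower without the 2 libraries that stood apart), and 1 lower and 2 higher in L-cDC2 minus M-cDC2 (0 or 1 higher without any 1 library of these groups). For all genes the shares were 6.12% lower and 7.02% higher in the former contrast, and 0.44% and 1.29% in the latter. Cd209a, a C-type lectin gene, averaged 13.8 ± 3.19 FPKM in CLP-cDC2 and 109.6 ± 46.5 FPKM in CDP-cDC2 (SD, n = 3 each; log2 difference -2.85, limma adjusted p = 4.3e-05). The cDC1 markers summed to 171 to 193 FPKM in L-cDC2 and 282 to 301 FPKM in M-cDC2, with 5 of 11 called lower and 0 higher (2 or 3 lower without any 1 of L-cDC2 replicates 1, 2 and 3 or M-cDC2 replicates 1 and 2). They summed to 247 to 301 FPKM in CLP-cDC2 and 185 to 228 FPKM in CDP-cDC2, with 6 of 11 called higher and 0 lower (3 higher without CLP-cDC2 replicate 2 or CDP-cDC2 replicate 3). The order of the cDC1 sums, high in M-cDC2 and CLP-cDC2, was followed by neither Apol7c nor Ocstamp. The part of these cells in the levels of either gene was not tested.

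The genes whose levels were most like each member across the 12 libraries were unlike each other. Among 9638 protein-coding genes compared, those with the highest Pearson correlation to Apol7c were Zbtb7a (0.97), Cacnb3 (0.96), Nudt17 (0.96), Il4i1 (0.95), Pilrb1 (0.95) and Cd40 (0.95). Cacnb3, Nudt17, Il4i1 and Cd40 are 4 members of the mature dendritic cell list. Apol7c was picked for its low CLP-cDC2 level and that list was set with results known, so the overlap is only a description. Zbtb7a, a transcription repressor gene, averaged 11.8 ± 0.956 FPKM in L-cDC2, 11.1 ± 1.25 FPKM in M-cDC2, 6.59 ± 0.422 FPKM in CLP-cDC2 and 11.8 ± 1.06 FPKM in CDP-cDC2 (SD, n = 3 each). The likeness lay in the low CLP-cDC2 level: the correlation of deviations from group means was 0.54 for Zbtb7a and -0.06 for Cacnb3. For the 6 genes the Pearson correlation was at least 0.89 without the 2 libraries farthest from the median of Apol7c, CLP-cDC2 replicates 2 and 3. The low CLP-cDC2 replicate 1 stayed in, so this value can still rest on that library. Spearman correlations over the 12 libraries were lower, from 0.45 for Il4i1 to 0.77 for Zbtb7a.

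The genes most like Ocstamp were Il1b (0.97), Il1rn (0.96), Spint1 (0.95), Ifitm2 (0.94), Nupr1 (0.94) and Atp6v0c (0.93). None of the 6 is on the mature dendritic cell list. Il1b, the gene of the inflammatory cytokine interleukin-1 beta, averaged 64.8 ± 7.42 FPKM in L-cDC2 and 126 ± 14.7 FPKM in M-cDC2, and 59.7 ± 3.65 FPKM in CLP-cDC2 and 222 ± 38.0 FPKM in CDP-cDC2 (SD, n = 3 each). It repeated the order of Ocstamp, with L-cDC2 and CLP-cDC2 overlapping and CDP-cDC2 above M-cDC2. Il1rn, the gene of the interleukin-1 receptor antagonist, averaged 1.13 ± 0.113 FPKM in L-cDC2 and 2.47 ± 0.0496 FPKM in M-cDC2, and 1.38 ± 0.357 FPKM in CLP-cDC2 and 4.44 ± 0.656 FPKM in CDP-cDC2 (SD, n = 3 each). Deviations from group means correlated at 0.19 for Il1b and at 0.86 for Nupr1, a stress-response gene. Without CDP-cDC2 replicates 1 and 2, the libraries farthest from the median of Ocstamp, the 6 correlations were 0.89 to 0.98, with CDP-cDC2 replicate 3 still in. Spearman correlations over the 12 libraries ran from 0.76 for Il1rn to 0.97 for Il1b. All these correlations rest on 12 libraries that fall into 4 groups, and they are given without a test.

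**Figure D4:**
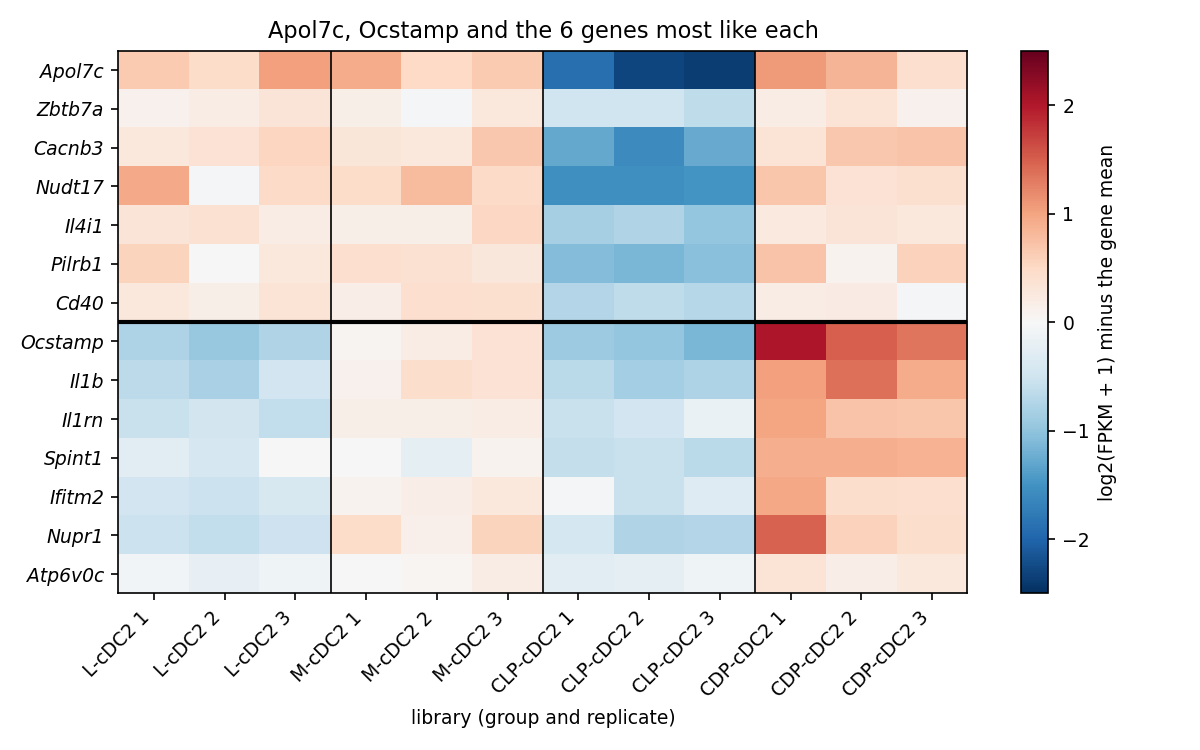
Levels of Apol7c with the 6 genes most like it (upper block) and of Ocstamp with the 6 genes most like it (lower block) in the 12 libraries, as log2(FPKM + 1) minus the mean of each gene, blue below and red above that mean. The upper block is blue in the 3 CLP-cDC2 libraries, and the lower block is red in the CDP-cDC2 libraries and blue in most L-cDC2 and CLP-cDC2 libraries.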

How the data were processed

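Libraries were made from RNA of splenic cDC2 with the SMART Seq HT and Nextera XT kits, per the labels' protocols. The authors deposited 1 table of FPKM for 55322 genes and 12 libraries. Per the submitters' processing notes, reads were handled with cutadapt 3.7, Trim Galore 0.6.7, STAR 2.7.9a, Trimmomatic 0.39, DESeq2 1.20.0 and featureCounts 2.0.1, listed beside the builds GRCh38 and GRCm38 with no role or order. The sources used here do not say whether counting used strand. GENCODE M21 (GRCm38) shares 52046 gene identifiers with the table, and 1462 of them had the deposited chromosome and start, so deposited coordinates carry no build and RefSeq promoter coordinates are given separately. Both members were found by symbol, and 1 of 2 had a RefSeq promoter.

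Reads were recovered from the steps of the FPKM values, taking the commonest low value as 1 read. All values above 0 were multiples of 0.01 read within 0.02 steps, and 44.8 to 53.2% were whole reads within the same tolerance, too few for a count test. Counting limits cover counting error only, as molecules were not tagged.

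limma 3.58.1 in R 4.3.3 (two-sided, moderated with a trend) fitted log2(FPKM + 1) for the 14538 genes at 1 FPKM or more in at least 3 libraries, with 4 group means over all 12 libraries. Differences on this scale understate changes of low genes. Adjustment was by Benjamini-Hochberg over the tested genes of a contrast, and adjusted p-values under 0.05 were called. The fit was tested on simulated data. Tables and figures used Python 3.11.15, pandas 2.3.3, numpy 2.4.6 and matplotlib 3.10.9.

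The members, the 14 gene lists and the comparisons were chosen with earlier results of these data known. The genes named were the members, Apol family genes reaching 1 FPKM, Dcstamp, up to 2 called genes with the largest differences per list and contrast, the 6 tested protein-coding genes most correlated with each member, and the nearest protein-coding neighbours. Some genes taken by the rule are given only within the counts of their list, and a few others were chosen for naming once their values were known. The test of the difference between the lineage contrasts was added after values were seen. Alternatives were pseudocounts of 0.1 and 5, other filters, quantile and median-ratio scaling, the 2 groups compared alone, array weights, no trend, a replicate block, protein-coding genes alone and each library left out. Joint removal of replicate 3 of CDP-cDC2 and of M-cDC2 was chosen after seeing the data.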

Additional observations from a re-analysis of the deposited data

Results flagged for a closer look

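Among genes named from the lists described, 15 were called in a limma test of the CLP-cDC2 minus CDP-cDC2 difference against the L-cDC2 minus M-cDC2 difference. The genes looked at were only the up to 2 called genes with the largest differences per list and contrast. They were thus picked on the contrasts compared, so the 15 calls describe these genes and are no count for whole lists. Over all genes 3.61% were called lower and 2.38% higher in this test. Apol7c and Ocstamp were left out of this test because of how they were chosen. The values are log2 differences of the first contrast minus the second, so a negative one means that the first contrast lay below the second. Mmp9 and Mgl2 were called higher in L-cDC2 minus M-cDC2, so for them there was no deficit in the reporter mice.

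Among mature dendritic cell genes the values were -1.93 for Cacnb3 and -1.87 for Nudt17. Among genes named beside Ocstamp, they were -0.92 for Il1b, -1.55 for Lyz2, -1.39 for Mmp9 and -1.09 for Csf1r, while Ccr2 had 1.52. Il1b and Lyz2 were called lower in both contrasts and more so in the transfer system.

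Among cDC2 markers the values were -1.53 for Cd209a, -2.26 for Cd4, -2.29 for Mgl2 and -0.74 for Cd74. Among cDC1 markers they were 1.91 for Clec9a, 1.74 for Cd8a, 2.504 for Gcsam and 1.79 for Naaa, whose estimates were negative in L-cDC2 minus M-cDC2 and positive in CLP-cDC2 minus CDP-cDC2.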

How the results depend on the processing

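The L-cDC2 minus M-cDC2 difference of Ocstamp kept its negative sign in all 24 alternatives, from -1.47 to -0.45, and was called in 21 of them. It was not called with a pseudocount of 5 (-0.45) and, over single libraries left out (-1.09 to -0.947), without L-cDC2 replicate 1 or 2. That of Apol7c was called in none and changed sign with quantile normalization (-0.056), median-ratio scaling (-0.0557) and without replicate 3 of both CDP-cDC2 and M-cDC2 (-0.0127), and ran from -0.149 to 0.140 over single libraries left out. These estimates lie within 1 SE of 0, and the cause of the sign changes was not tested.

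The 188 genes called higher in L-cDC2 minus M-cDC2 became 236 without a filter, 84 with a filter of 5 FPKM, 538 with array weights, 110 among protein-coding genes and 78 to 209 over left-out libraries. The 64 called lower became 35 without a filter, 300 with array weights and 18 to 80. The share of these calls that were higher was 74.6%, and 64.4% with quantile normalization. In CLP-cDC2 minus CDP-cDC2 the 1021 higher became 576 without a filter, 312 with the transfer groups alone and 477 to 1073, and the 889 lower became 491, 375 and 501 to 907. The cause of these moves was not tested.

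Deviations from group means correlated between same-numbered libraries at -0.22 to 0.13 (L-cDC2 and M-cDC2) and -0.03 to 0.28 (CLP-cDC2 and CDP-cDC2). So few correlations cannot tell whether the samples were paired. With the replicate block Ocstamp had -1.02 (limma adjusted p = 0.023), Apol7c 0.01, and the counts were 173 and 52 in L-cDC2 minus M-cDC2 and 718 and 646 in CLP-cDC2 minus CDP-cDC2. The cell fusion list had 7 lower calls in place of 11. Among 26 calls of list genes, counted per gene and contrast, 13 were kept in every alternative run. The 26 leave out the lymphocyte, plasma cell and plasmacytoid dendritic cell lists. They include that of Dcstamp in L-cDC2 minus M-cDC2, which the filter admitted through L-cDC2 alone. With 3 libraries a group, differences of the size of the Apol7c interval cannot be resolved.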
